A study of Mus musculus with 6 samples.

Results

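The 52 genes described here work in meiosis, in the piRNA pathway or in the control of germ cell identity. They were taken from a list of symbols, and each symbol matched 1 of the 43346 genes of an RNA-seq count table made from mouse brain. Meiosis pairs homologous chromosomes, joins them along their length by the synaptonemal complex, cuts and recombines their DNA and holds sister chromatids together with cohesin subunits that other cells lack. piRNAs are small RNAs that guide PIWI proteins to transposon transcripts in germ cells, and many proteins of the pathway carry Tudor domains and gather in granules beside the nucleus, the nuage. Most of these genes are known for little or no transcription outside the gonad. KDM5C is an X-linked histone demethylase that removes methyl groups from a histone H3 mark of active promoters, and germ cell genes are among the genes known to be derepressed in neural tissue that lacks it.

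RNA was sequenced from the brains of 6 adult male mice, 3 labelled Kdm5c deficient and 3 wild-type littermates. All were bred from a C57BL/6 female heterozygous for Kdm5c deficiency and a wild-type 129 male, so both groups are an even mixture of the C57BL/6 and 129 strains. The nature of the Kdm5c allele and the brain region are not given in the labels. The mice are separate animals, and the labels do not give shared replicate numbers as pairs.

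Libraries held from 20221675 to 24555412 counts. The floor of 3 counts therefore stood at 0.122 to 0.148 CPM (counts scaled to a common library total), and limits based on counts cover counting error only. Kdm5c itself had 1572, 1561 and 1713 counts in deficient mice against 1916, 1692 and 1921 in wild type (log2 fold change -0.16 ± 0.07 (SE), adjusted p = 0.196, edgeR's quasi-likelihood test). These counts cover the whole gene and the allele is not described, so they do not check the labels. Summed levels of 5 neuronal markers ran from 6130 to 7230 CPM and those of 5 glial markers from 4220 to 6430 CPM. The sum of 10 cerebellar markers was 134 CPM in deficient mouse 2 and 834 to 1450 CPM in the other 5 mice.

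Of the 52 genes, 47 had at least 1 read in deficient mice against 47 in wild type, and 45 had reads in both genotypes. In deficient mice 40 genes were read in every animal, in wild-type mice 38, and 37 were read in all 6. The genotypes therefore differed little in how many of these genes gave any read at all.

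No read was found in any mouse for Hormad1, which encodes a protein of the unpaired meiotic chromosome axis, for Stra8, the retinoic acid target that starts the meiotic programme, or for Tex101, a surface protein of male germ cells. A count of 0 in a library allows a level up to that library's floor of 3 counts. Asz1, a nuage scaffold protein on mitochondria, had 0, 1 and 2 reads in deficient mice and Tex19.1, a transposon silencing factor, had 0, 0 and 1; neither had a read in wild-type mice. Figla and Nobox, transcription factors of the oocyte, each had 1, 1 and 0 reads in wild-type mice and none in deficient mice. All 4 of these genes were at or under the floor in each genotype's mice, so no fold change is given for them. No gene had reads in all mice of 1 genotype and none in the other.

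In all, 13 genes had 10 reads or fewer over the 6 mice together. Besides those named above, these were Gtsf1 and Piwil4 of the piRNA pathway, Syce3 of the synaptonemal complex, Hormad2 and Meiob of the recombination group and the transcription factor gene Sohlh1. Among genes with slightly more reads, Msh4, a MutS protein of meiotic crossovers, had up to 12 reads in a deficient mouse and up to 3 in a wild-type mouse, and the spermatogonial factor Sohlh2 had 8 reads in deficient mouse 1 and at most 2 elsewhere. Both were singled out after their values were seen, and in the fit without a filter neither passed the threshold (adjusted p = 0.232 and 0.564, edgeR).

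**Figure D1:**
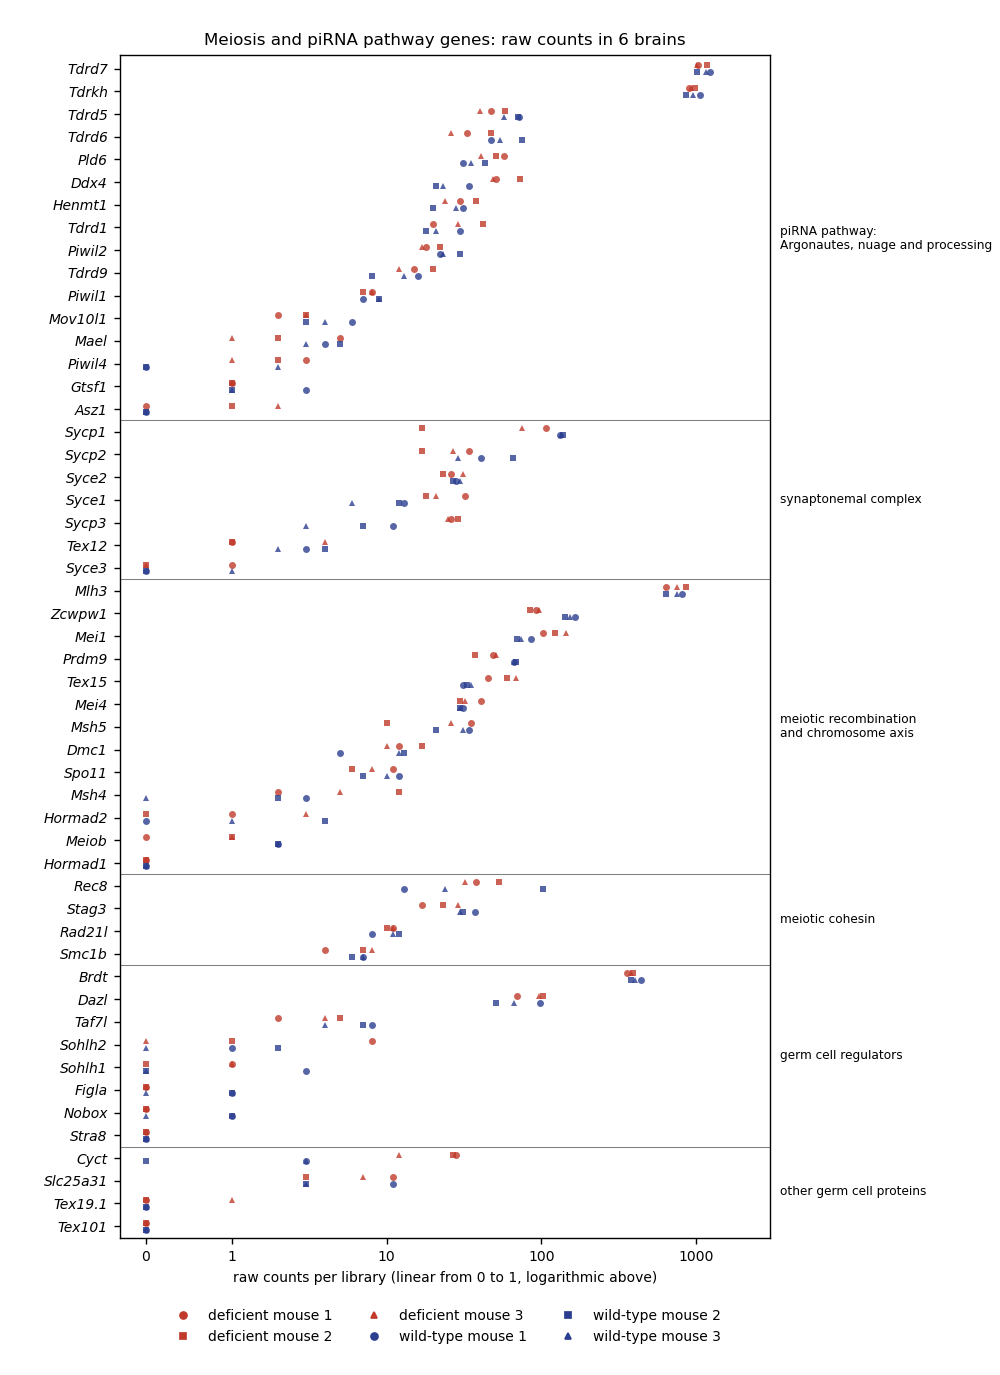
Raw counts of the 52 genes in each mouse, grouped by role and ordered by mean CPM; the horizontal axis is linear from 0 to 1 and logarithmic above. Red marks are deficient mice and blue marks wild-type mice, the shape gives the replicate number, and most genes overlap between the colours, from 0 counts up to those of Tdrd7.

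Taken by sum, the genes did not separate the genotypes. All 52 together gave 4020, 4492 and 4161 reads in deficient mice against 4693, 4050 and 4318 in wild type. The 23 genes under edgeR's filter on low counts (0.445 CPM in at least 3 mice) gave 61, 52 and 58 reads in deficient mice against 72, 57 and 49. Both pairs of ranges overlapped.

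A small set of genes carried most of the reads. Compared per kilobase of the longest annotated transcript, Tdrd7, a Tudor protein of the nuage that is also needed in the lens, was highest, with a mean of 13.0 CPM per kilobase in deficient and 13.5 in wild-type mice. It was followed by Tdrkh, a mitochondrial Tudor protein that helps to trim piRNAs (7.37 and 7.42), and by Mlh3, a mismatch repair protein needed for crossovers (6.14 and 5.89). Brdt, the testis member of the BET bromodomain family, came next (3.55 and 3.79).

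Raw counts of these well-read genes were close in the 2 genotypes. Tdrd7 had 1035, 1181 and 1018 counts in deficient mice against 1234, 1007 and 1166 in wild type. Tdrkh had 893, 979 and 929 against 1059, 859 and 957, although its exons share 2255 bases with Oaz3 on the opposite strand. Mlh3 had 638, 860 and 749 against 806, 637 and 748. In each of the 3 genes the genotypes overlapped, and log2 fold changes (deficient over wild type) were -0.05 ± 0.05 for Tdrd7, -0.01 ± 0.05 for Tdrkh and 0.06 ± 0.07 (SE) for Mlh3, none past the threshold (adjusted p = 0.556, 0.914 and 0.659, edgeR). Brdt had 356, 389 and 381 counts against 438, 380 and 404. Its CPM did not overlap between the genotypes, 16.9 ± 0.619 against 18.0 ± 0.518 (SD, n = 3 each), yet the change of -0.09 ± 0.07 (SE) did not pass either (adjusted p = 0.426, edgeR).

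Dazl, an RNA-binding protein that licenses germ cells for differentiation, was the most read of the other germ cell regulators. It had 70, 102 and 96 counts in deficient mice against 98, 51 and 67 in wild type. The genotypes overlapped, with a log2 change of 0.34 ± 0.20 (SE) (adjusted p = 0.312, edgeR). None of the 8 germ cell regulators passed the threshold, and 2 of them, Brdt and Dazl, had enough reads to be tested. Over all genes tested, 4.93% passed.

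Between the genotypes 29 of the 52 genes could be tested, and 4 rose in deficient brain while 1 fell. The risers were Cyct, Sycp3, Ddx4 and Mei1, and the gene that fell was Zcwpw1. That is 17.2% of the genes tested, where 4.93% of all 15127 genes tested were called in either direction, 2.45% higher and 2.48% lower. Cyct and Sycp3 passed the filter through the deficient mice, so this share is a description. The median log2 fold change of the 29 genes was 0.06, with 15 above and 14 below 0, beside a median of 0.0 over all genes tested. Without the filter 49 genes could be fitted and 5 were higher and 1 lower, Tex15 being added, where 2.65% of 21087 genes were higher and 2.67% lower. Since the samples are whole tissue, fewer cells of a type and less RNA per cell cannot be told apart in any of these values.

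Cyct encodes the testis form of cytochrome c, an electron carrier of sperm mitochondria. It had 28, 27 and 12 counts in deficient mice against 3, 0 and 3 in wild type. Every wild-type mouse was at or below the floor of 3 counts, and the lowest deficient mouse stood above the highest wild-type mouse. Mean levels were 1.0 ± 0.399 CPM against 0.0842 ± 0.0731 CPM (SD, n = 3 each). The log2 fold change was 3.43 ± 0.60 (SE), the largest among the 29 genes tested (adjusted p = 0.0228, edgeR's quasi-likelihood test). Over the group, 67 reads against 6 gave a ratio of 11.3 with a 95% counting interval from 4.91 to 31.8. That interval pools the reads of the 3 mice in each genotype and leaves out the spread between mice. The gene lies on chr2:76353942-76360450 (minus strand, GRCm38), and it passed the filter through the 3 deficient mice alone.

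Sycp3 forms the lateral element of the synaptonemal complex, along which meiotic chromosomes condense. It had 26, 29 and 25 counts in deficient mice against 11, 7 and 3 in wild type. The deficient mice were close to each other and all above the wild-type mice, at 1.20 ± 0.0397 CPM against 0.306 ± 0.160 CPM (SD, n = 3 each). The log2 fold change was 1.94 ± 0.34 (SE) (adjusted p = 0.0229, edgeR). Of the wild-type mice 1 was over the filter's CPM cutoff, so this gene too passed through the group in which it was high. Sycp3 lies on chr10:88459569-88473236 (plus strand, GRCm38), and its exons share 660 bases with Chpt1 on the opposite strand. Chpt1 had 1024 to 1354 counts per mouse and a log2 fold change of -0.16 (adjusted p = 0.375, edgeR).

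Ddx4, also called Vasa, is an RNA helicase of the nuage and a widely used germ cell marker. It had 51, 73 and 49 counts in deficient mice against 34, 21 and 23 in wild type. The groups did not overlap: levels were 2.57 ± 0.431 CPM against 1.14 ± 0.208 CPM (SD, n = 3 each), a log2 change of 1.17 ± 0.21 (SE) (adjusted p = 0.0235, edgeR). It lies on chr13:112598333-112652475 (minus strand, GRCm38), and all 6 mice were over the filter's cutoff.

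Mei1 is required for the DNA breaks that start meiotic recombination. Counts were 103, 122 and 144 in deficient mice against 86, 70 and 74 in wild type. Deficient mouse 3 was highest and the groups did not overlap. Levels of 5.53 ± 0.962 CPM against 3.38 ± 0.128 CPM (SD, n = 3 each) gave a log2 change of 0.71 ± 0.15 (SE) (adjusted p = 0.0369, edgeR). The gene lies on chr15:82069996-82126814 (plus strand, GRCm38).

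Zcwpw1, a reader of the histone marks that PRDM9 writes at recombination hotspots, was the gene that fell. It had 92, 85 and 97 counts in deficient mice against 164, 143 and 154 in wild type. Every deficient mouse was below every wild-type mouse, at 4.12 ± 0.483 CPM against 6.79 ± 0.186 CPM (SD, n = 3 each), a log2 change of -0.72 ± 0.12 (SE) (adjusted p = 0.0226, edgeR). The gene lies on chr5:137787798-137822621 (plus strand, GRCm38). Its exons share 468 bases with Pilra on the opposite strand, which had 3 to 11 counts per mouse.

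Tex15, which acts in meiotic break repair and in transposon silencing, had 45, 60 and 69 counts in deficient mice against 31, 33 and 35 in wild type. The groups did not overlap, at 2.60 ± 0.536 CPM against 1.47 ± 0.188 CPM (SD, n = 3 each). Its change of 0.83 ± 0.21 (SE) on the log2 scale missed the threshold with the filter and passed without it (adjusted p = 0.055 and 0.0377, edgeR). The gene lies on chr8:33516738-33585582 (plus strand, GRCm38). In a two-sided exact permutation test of CPM, each of these 6 genes gave p = 0.1, the smallest that 3 mice against 3 allow. Any gene without overlap between the genotypes gives this value, so it adds no support to the calls.

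**Figure D2:**
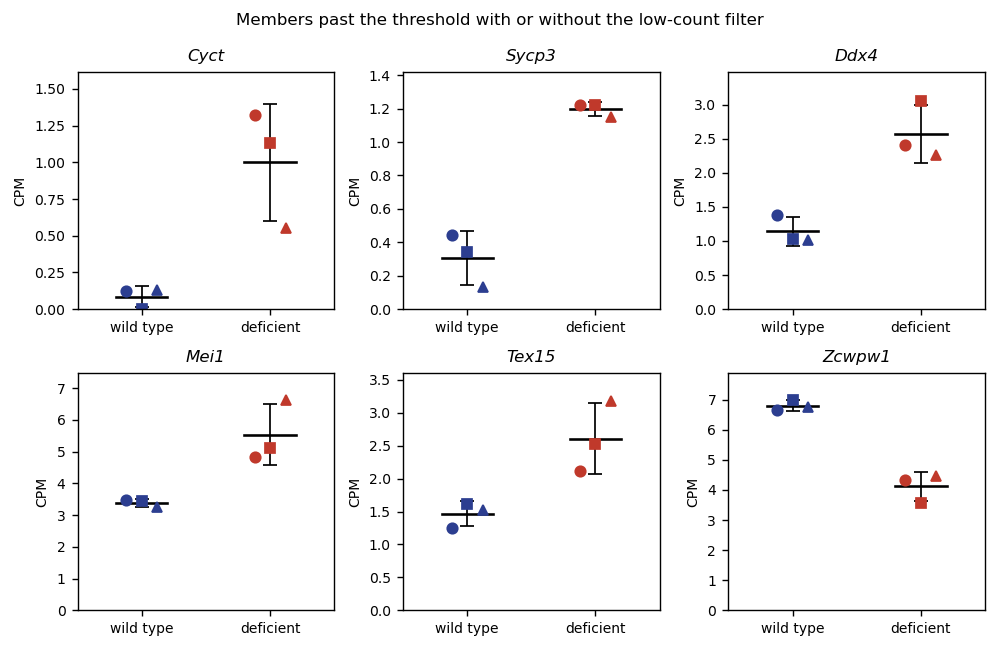
CPM of Cyct, Sycp3, Ddx4, Mei1, Tex15 and Zcwpw1 in each mouse (points; the shape gives the replicate number), with the mean and SD of each genotype as bars, n = 3. No gene overlaps between the genotypes; the first 5 are higher in deficient mice and Zcwpw1 is lower, and each vertical axis starts at 0.

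The authors' deposited table gave the same directions. There the log2 fold changes, turned here to deficient over wild type, were 0.4576 for Cyct, 0.4492 for Sycp3, 0.5224 for Ddx4, 0.4607 for Mei1, 0.3907 for Tex15 and -0.5092 for Zcwpw1. These deposited values are shrunken towards 0, so they are smaller in size than those fitted here to the same counts.

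The calls depended on which mice entered the fit. With the filter, all 5 called genes passed again without deficient mouse 1 and without deficient mouse 2, where 13.6% and 4.47% of all genes were called. Without deficient mouse 3, Cyct alone passed and the adjusted p of the 5 genes ran from 0.0348 to 0.0849 (1.01% of all genes called). Without wild-type mouse 1, 2 or 3 none of the 5 passed, with adjusted p from 0.0744 to 0.12, from 0.0988 to 0.14 and from 0.0659 to 0.115 (edgeR). In those 3 fits 0.289%, 0.346% and 0.648% of all genes were called.

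The log2 fold changes themselves kept their direction in these fits, from 2.94 to 3.81 for Cyct, 1.58 to 2.34 for Sycp3, 1.02 to 1.34 for Ddx4, 0.56 to 0.80 for Mei1 and -0.79 to -0.63 for Zcwpw1. In fits without the filter, Cyct passed in 6 of 6, Sycp3, Ddx4 and Zcwpw1 in 5 of 6 and Mei1 in 2 of 6, where 0.962% to 12.2% of all genes were called. The 3 genes that passed 5 times missed without wild-type mouse 2, where the adjusted p reached 0.0558 for Sycp3, 0.0677 for Ddx4 and 0.0571 for Zcwpw1 (edgeR). Tex15 passed in 1 of the 6, the fit without deficient mouse 1.

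**Figure D3:**
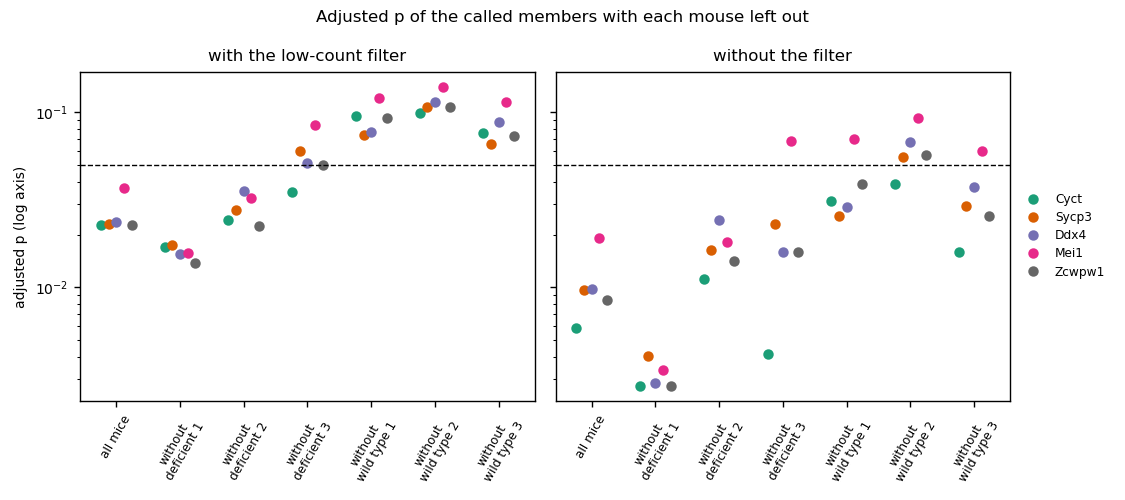
Adjusted p (log axis) of the 5 called genes in edgeR fits with all mice and with each mouse left out, with the filter on low counts (left) and without it (right). Points under the dashed line at 0.05 passed; with the filter no gene is under it once a wild-type mouse is left out, and without the filter Cyct (green) is under it in each fit.

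Promoters of the 52 genes were read for the letters of sites known from germ cell gene repression. Background knowledge places a Polycomb complex with E2F and MGA proteins at many germ cell promoters in other tissues; MGA and its partner MAX bind the E-box CACGTG, and E2F proteins bind sites with the core GGCGGGA. RefSeq promoter windows on GRCm38.p6, from 250 bases before to 50 after a transcript's start, matched 47 of the 52 symbols with 59 windows; Tex15, Meiob, Piwil2, Spo11 and Tdrd6 had none. Both strands were searched; CACGTG reads the same on both, and the motifs can share at most 1 base.

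The next 5 sequences are shown because they set side by side the 4 genes that rose and a silent gene, Hormad1, whose window holds both motifs. Each is the 250 bases before the start, 5′ to 3′ on the gene's own strand, and capitals mark CACGTG and GGCGGGA in either orientation. Ddx4 lies at chr13:112652311-112652560 (minus strand), Sycp3 at chr10:88459337-88459586 (plus strand), Hormad1 at chr3:95559427-95559676 (plus strand), Cyct at chr2:76360454-76360703 (minus strand) and Mei1 at chr15:82082226-82082475 (plus strand). The RefSeq start of Mei1 lies inside the gene as GENCODE draws it.
Ddx4: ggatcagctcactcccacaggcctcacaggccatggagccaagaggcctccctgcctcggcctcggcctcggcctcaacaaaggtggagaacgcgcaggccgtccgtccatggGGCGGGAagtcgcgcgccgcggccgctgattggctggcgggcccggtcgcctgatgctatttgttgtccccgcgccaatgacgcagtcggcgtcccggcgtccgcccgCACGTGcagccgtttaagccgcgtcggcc
Sycp3: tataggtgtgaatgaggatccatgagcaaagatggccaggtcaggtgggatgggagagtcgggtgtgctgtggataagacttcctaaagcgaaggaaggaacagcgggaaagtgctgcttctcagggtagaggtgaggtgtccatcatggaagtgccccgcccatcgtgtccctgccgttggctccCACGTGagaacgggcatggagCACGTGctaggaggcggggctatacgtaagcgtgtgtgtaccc
Hormad1: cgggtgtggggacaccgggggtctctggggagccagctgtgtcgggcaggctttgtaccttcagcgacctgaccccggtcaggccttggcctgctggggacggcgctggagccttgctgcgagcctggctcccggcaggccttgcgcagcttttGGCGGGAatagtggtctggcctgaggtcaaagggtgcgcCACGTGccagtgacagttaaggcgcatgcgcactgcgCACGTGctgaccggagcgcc
Cyct: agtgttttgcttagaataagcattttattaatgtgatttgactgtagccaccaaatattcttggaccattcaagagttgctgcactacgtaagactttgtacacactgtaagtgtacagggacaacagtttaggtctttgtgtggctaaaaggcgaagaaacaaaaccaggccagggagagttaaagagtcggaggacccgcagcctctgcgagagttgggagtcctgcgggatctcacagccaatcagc
Mei1: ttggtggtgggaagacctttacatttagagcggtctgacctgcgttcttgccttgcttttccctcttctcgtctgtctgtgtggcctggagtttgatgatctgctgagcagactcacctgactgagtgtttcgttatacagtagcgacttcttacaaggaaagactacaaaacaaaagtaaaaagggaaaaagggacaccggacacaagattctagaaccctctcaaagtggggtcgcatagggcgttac

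The E-box was found in 19 of the 59 windows (32.2%), where 7.15% of all 32851 windows hold it. By gene that is 17 of 47 (36.2%) against 8.09% of 27025 genes. The E2F core was in 10 windows (16.9% against 11.3%), and by gene in 8 of 47 (17.0% against 12.7%). Both motifs were in 7 windows (11.9% against 1.18%), among which overlapping windows of Hormad1 were counted separately. Windows of the 59 were also richer in CG, with a median of 18 CG and 60.7% G or C against 7 CG and 52.7% over all windows. These shares are descriptions, and since the symbols were chosen by function no test is attached to them.

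Genes with and without the motifs were found among those that rose, those near silent and those well read. Ddx4 holds both motifs and Sycp3 holds the E-box at 2 positions, while Cyct and Mei1, which also rose, hold neither, as does Zcwpw1, which fell. Hormad1, with both, had no read, and Stra8 and Tex101, also without a read, hold neither. Other genes with an E-box included Brdt and Sycp1, which were well read and did not pass the test, and Sohlh1, Mael and Tex12, with at most 5 reads in a mouse. A match of letters is not a binding site, and a missing match says only that the letters are not in this window.

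The piRNA pathway genes were, with 16, the most numerous group. Of these 10 were tested, 1 rose (Ddx4), none fell and 5 lay on each side of 0. Over all genes tested, 2.45% were higher and 2.48% lower. The PIWI proteins themselves were barely read: Piwil1 had 7 to 9 reads per mouse in both genotypes, Piwil4 up to 3, and Piwil2 17 to 30 (log2 fold change -0.38, adjusted p = 0.39, edgeR). Tdrd5 and Tdrd6, nuage proteins of male germ cells, came to -0.45 and -0.73 on the log2 scale (adjusted p = 0.177 and 0.158, edgeR), and Pld6, a mitochondrial surface protein of piRNA production, had 0.47 (adjusted p = 0.25, edgeR). These Tudor and Pld6 values were picked out after they were seen. Maelstrom (Mael), the helicase gene Mov10l1, the zinc finger gene Gtsf1 and Asz1 had at most 6 reads in any mouse. Exons of Tdrd5, Henmt1, Piwil4 and Msh4 overlap those of a gene on the opposite strand, so their counts are uncertain to that extent.

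Of 7 synaptonemal complex genes 5 were tested, and Sycp3 alone rose, beside 2.45% of all genes tested that were higher. Syce1, a central element protein, had 32, 18 and 21 counts in deficient mice against 13, 12 and 6 in wild type without overlap, but at 1.22 ± 0.37 (SE) on the log2 scale it did not pass (adjusted p = 0.0949, edgeR); it was singled out after its values were seen. Its partners Syce3 and Tex12 had at most 4 reads in a mouse, and Syce2 had 23 to 31 in all mice.

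Sycp1, the transverse filament that bridges the paired chromosomes, had 107, 17 and 75 counts in deficient mice against 131, 137 and 134 in wild type. The wild-type mice were within a narrow range and deficient mouse 2 was far below the rest. Levels were 3.07 ± 2.18 CPM against 5.96 ± 0.705 CPM (SD, n = 3 each), with a log2 change of -0.97 ± 0.46 (SE) that did not pass (adjusted p = 0.228, edgeR). Per mouse, the CPM of Sycp1 was 5.03, 0.713 and 3.45 in deficient mice against 5.30, 6.70 and 5.86 in wild type, and the summed cerebellar markers were 1120, 134 and 834 CPM and 1250, 1340 and 1450 CPM. The same deficient mouse was lowest in both and deficient mouse 3 was next. Without deficient mouse 2 the log2 fold change of Sycp1 was -0.49, and without deficient mouse 1 it was -1.54 with an adjusted p of 0.0489 (edgeR). The part of the cerebellar difference in the result was not tested.

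**Figure D4:**
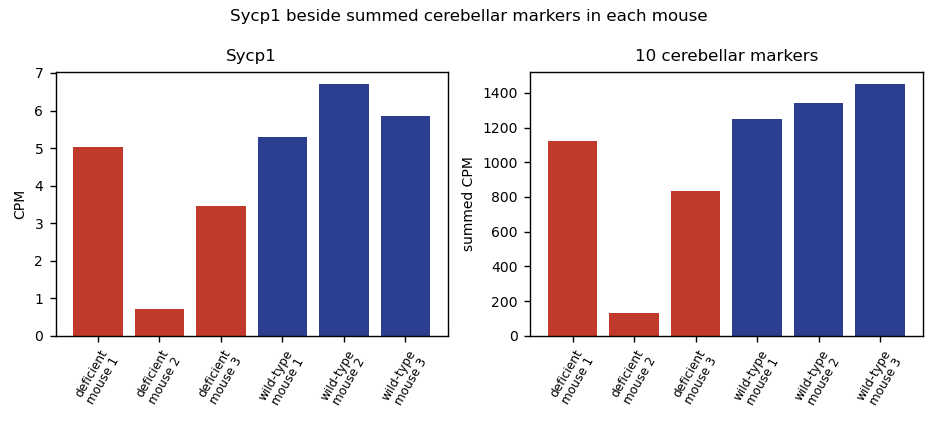
Sycp1 in CPM (left) and the summed CPM of 10 cerebellar markers (right) in each mouse; bars start at 0, red is deficient and blue wild type. Deficient mouse 2 is lowest in both panels, at 0.713 CPM and 134 CPM.

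Sycp2, a lateral element protein, and Msh5, a crossover protein, were lowest in deficient mouse 2 as well, with 17 and 10 counts, and neither passed; they were picked out after their values were seen. Among the called genes Zcwpw1 was also lowest in deficient mouse 2, whereas Ddx4 was highest there and Mei1 and Cyct lay between the other deficient mice. Without that mouse all 5 called genes passed again with adjusted p from 0.0225 to 0.0356 (edgeR). Deficient mice 1 and 3 still had lower summed cerebellar markers, 1120 and 834 CPM against 1250 to 1450 CPM in wild type. The part of that difference in the calls was not tested.

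The recombination and chromosome axis group had 13 genes, of which 8 were tested, Mei1 rose and Zcwpw1 fell. Over all genes tested, 2.45% were higher and 2.48% lower. Prdm9, the methyltransferase that sets recombination hotspots, had 49, 37 and 51 counts in deficient mice against 67, 69 and 67 in wild type. It was below wild type in every deficient mouse but did not pass, with a log2 change of -0.54 ± 0.19 (SE) (adjusted p = 0.136, edgeR); it was singled out after its values were seen. Spo11, the enzyme that makes the breaks, had 6 to 12 reads in each mouse, and Dmc1, the meiotic strand exchange protein, 5 to 17. Mei4, a partner of SPO11, had 30 to 41, with a log2 fold change of 0.21 (adjusted p = 0.593, edgeR).

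None of the 4 meiotic cohesin genes passed, and 3 were tested, beside 4.93% of all genes tested that passed. Rec8, the meiotic kleisin, had 38, 53 and 32 counts in deficient mice against 13, 102 and 24 in wild type; wild-type mouse 2 alone was far above the others, and the gene was singled out after its values were seen. Its log2 fold change of -0.20 ± 0.66 (SE) (adjusted p = 0.879, edgeR) became 1.23 (adjusted p = 0.169) without that mouse. Stag3 was at -0.48 (adjusted p = 0.242), and Rad21l and Smc1b had 4 to 12 reads per mouse.

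Over all 52 genes, 6 were higher and 7 lower in deficient mice without overlap of CPM, where 11.6% and 12.8% of the genes with at least 1 read did so. Among the 29 tested, 6 were higher and 5 lower, beside 14.9% and 16.0% of all genes tested. An unadjusted p under 0.05 was reached by 10 of the 29, beside 24.9% of all genes tested.

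Markers of gonad cells were counted in the same libraries, where 2.45% of all genes tested were called higher and 2.48% lower. Of 8 spermatid markers, Tnp1, Odf1 and Pgk2 had no read in any mouse, 6 had 10 reads or fewer in total and none was called; their sum ran from 1.06 to 1.83 CPM in deficient and from 0.930 to 1.49 CPM in wild-type mice. Of 8 oocyte markers, 5 had 10 reads or fewer, none was called, and the sums ran from 0.839 to 1.46 CPM and from 0.971 to 1.44 CPM. Of 8 markers of somatic testis cells, 3 had no read, 2 were tested and Amh was called higher. Star, the other marker tested, was at -0.30 on the log2 scale and was not called (adjusted p = 0.213, edgeR). The sums of this list ran from 7.69 to 8.98 CPM in deficient and from 7.19 to 8.78 CPM in wild-type mice. Of 8 spermatogonial markers, 6 were tested and Zbtb16 was called higher. Among the others tested, Uchl1 and Nanos3 were at 0.27 and 0.02 on the log2 scale. Kit, Nanos2 and Gfra1 were at -0.38, -0.85 and -0.08, and none of these was called with the filter (adjusted p from 0.0809 to 0.973, edgeR). This list holds genes that neurons also express, such as Uchl1. It summed to 784 to 911 CPM in deficient and 738 to 760 CPM in wild-type mice. Markers of ciliated ependymal cells, a brain cell type that shares genes with sperm tails, summed to 32.7 to 38.6 CPM and 31.9 to 36.6 CPM with none of 8 called.

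Further genes of the same pathways were counted for comparison. Of 51 listed, 39 had a symbol in the table, 26 were tested, 5 rose and none fell, where 2.45% of all genes tested were higher and 2.48% lower. Some of the 5 passed the filter through the deficient mice, and the list was chosen with earlier results known. This count is therefore a description. The median log2 fold change of the 26 was 0.12, with 18 above 0. Tex14, a protein of the bridges between germ cells, had 181, 214 and 236 counts in deficient mice against 29, 19 and 21 in wild type, a log2 change of 3.21 ± 0.17 (SE) (adjusted p = 0.000125, edgeR). Hsf2bp, a meiotic recombination protein, had 44, 117 and 50 against 15, 7 and 10 counts (2.72 ± 0.42 (SE), adjusted p = 0.0185, edgeR); with 3 deficient and 1 wild-type mouse over the cutoff, it passed the filter through the group in which it was high. Ccnb1ip1, a crossover ligase, rose by 1.66 on the log2 scale, the Tudor gene Rnf17 by 1.51 and 4930432K21Rik by 0.64 (adjusted p = 0.0255, 0.0351 and 0.0383, edgeR). With 3 deficient and 2 wild-type mice over the cutoff, Ccnb1ip1 too passed the filter through the deficient mice. Tex14 passed in each of 6 fits that left out a mouse, which none of the 52 genes did with the filter. In the same fits Hsf2bp and Rnf17 passed in 3, Ccnb1ip1 in 2 and 4930432K21Rik in 1.

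Without the filter, Rec114, a partner of MEI4, and Fkbp6, a piRNA chaperone, also passed (adjusted p = 0.0462 and 0.0285, edgeR). Of those that did not pass with it, the exonuclease gene Pnldc1 was at 0.88 (adjusted p = 0.0681), Exd1 at -0.31 and Ythdc2 at -0.13. Exons of Ccnb1ip1, Hsf2bp, Rec114 and Pnldc1 overlap those of a neighbour, so their counts carry that uncertainty.

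Each germ cell gene that has a broadly expressed relative was set beside it per kilobase. Cyct was at 1.53 CPM per kilobase in deficient and 0.129 in wild-type mice, and its somatic counterpart Cycs at 8.52 and 8.23. Cycs was thus 5.57 times Cyct in deficient and 64.0 times in wild-type mice. The wild-type ratio rests on 6 reads of Cyct, with every wild-type mouse at or below the floor of 3 counts, so its size is uncertain. How reads matching both genes were assigned is not given in the sources used here. Ddx4 was at 0.854 and 0.377, below its relative Ddx3x at 72.4 and 75.6. The cohesin Smc1b was 342 times lower than Smc1a in deficient and 330 times lower in wild-type mice. Mlh3, itself well read in every mouse, stood above its relative Pms2 (1.20 and 1.52) in both genotypes. Exons of Pms2 share 394 bases with Gm42421 and 85 with Rsph10b on the same strand, so its counts are uncertain to that extent. Taf7l, a testis form of a general transcription factor subunit, was near its barely read relative Taf7 (0.0842 and 0.145 against 0.104 and 0.134). In the other comparisons drawn the germ cell gene was below its relative in both genotypes.

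Of 24 somatic relatives 23 were tested, none rose and Ago3 fell, where 2.45% of all genes tested were higher and 2.48% lower. The median log2 fold change of the relatives was -0.06. Ago3, a small RNA Argonaute outside the PIWI group, had 1532, 1425 and 1559 counts in deficient mice against 2100, 2043 and 1929 in wild type, a log2 change of -0.40 ± 0.09 (SE) (adjusted p = 0.0431, edgeR). It was not called without deficient mouse 3 or without any of the wild-type mice. The next smallest p-values were those of Pms2 at -0.33, Stag1 at -0.24, Mov10 at -0.27 and Msh3 at -0.15, none past the threshold (adjusted p from 0.0965 to 0.226, edgeR). The relative of Cyct, Cycs, was at 0.05 (adjusted p = 0.676), and that of Ddx4, Ddx3x, at -0.06 (adjusted p = 0.377).

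**Figure D5:**
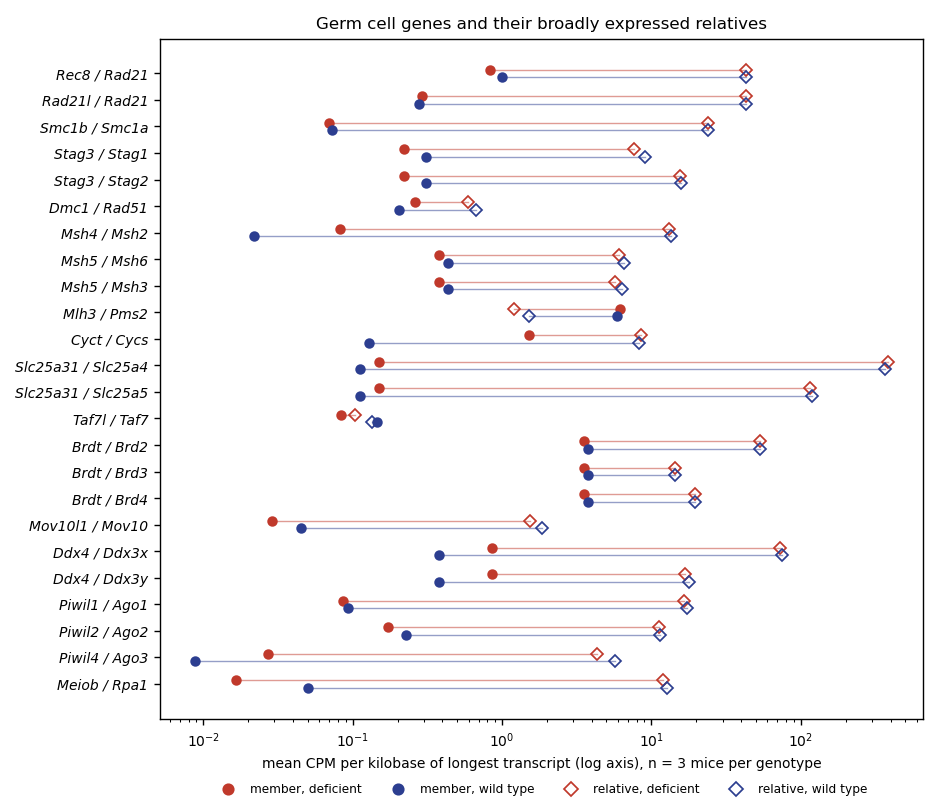
Mean CPM per kilobase of the longest transcript (log axis, n = 3 mice per genotype) of germ cell genes (filled circles) and broadly expressed relatives (open diamonds), in deficient (red) and wild-type (blue) mice. Cyct and Ddx4 lie further right in red than in blue while their relatives lie close together, and Mlh3 lies right of Pms2 in both genotypes.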

How the data were processed

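RNA was measured in 6 mouse brains. Per the file headers, the deposited values are raw counts, 1 for each symbol in each mouse. Beside them stand the authors' mean signal, their log2 fold changes with standard errors, Wald scores and p-values without adjustment. Those columns served only for comparison; the sign of the deposited log2 values is wild type over deficient, and they are shrunken. DESeq2 and the genome build GRCm38 are named per the submitters' processing notes. The sources used here do not give aligner, counting program, annotation or strandedness, so reads of overlapping genes on opposite strands cannot be told apart.

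Tests were run with edgeR 4.0.16 in R 4.3.3 (quasi-likelihood test, genotype as the only factor, trimmed mean of M-values scaling). The default filter (minimum count 10, minimum total 15) left 15127 genes, over which p-values were adjusted by Benjamini-Hochberg with a threshold of 0.05. Of 43346 symbols 22259 had no read, and 27 had turned into dates. All 52 genes were matched by exact symbol; detection and the fit without a filter used raw counts. CPM use the scaled library totals. The level of 1 somatic relative is not reported here. Positions, transcript lengths and exon overlaps came from GENCODE M21 and promoter sequences from RefSeq, both on GRCm38. Alternatives were other scalings and filters, limma-voom (limma 3.58.1), DESeq2 1.42.0, a block by replicate number, thresholds of 0.01 and 0.1, and fits without each mouse. The fits were tested on simulated data.

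The 52 genes, the comparison lists and the tests were chosen with earlier results of these data known. Values per mouse are printed for Kdm5c, for genes past the threshold with or without the filter and for the 8 genes with the highest mean CPM. They are also printed for genes read only in deficient or only in wild-type mice and, of the comparison lists, for some that passed. Further genes given mouse by mouse are marked as picked out after seeing their values, and the rest are given by ranges, counts or a fold change.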

Additional observations from a re-analysis of the deposited data

How the results depend on the processing

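Of the values for single genes, 843 kept their direction and their side of the threshold, 70 lost and 12 gained the call, and 16 changed sign. Other scalings and limma-voom kept all 5 calls among the 52 genes. DESeq2 and a filter of 1 CPM in 3 mice kept 4 (5.73% and 5.17% of all genes called); DESeq2 gave Cyct no adjusted p, and the filter left it out. At an adjusted p of 0.01 none of the 52 genes was higher (0) or lower (0), 1 further pathway gene was higher and 0 relatives were lower (0.291% of all genes called); at 0.1, 6 of the 52 genes were higher and 1 lower, 7 further genes were higher and 2 relatives were lower (11.8% of all genes called). Counted by a mean of at least 10 reads, 29 of the 52 genes were read in deficient and 27 in wild-type mice.

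With the replicate number as a block, 0 of the 52 genes were higher and 0 lower (adjusted p of the 5 called genes from 0.0831 to 0.1), 1 further pathway gene was higher and 0 relatives were lower; 58 genes of all (0.383%) were called. With the block and no filter, added after seeing the data, 4 of the 5 passed (2.08% of all genes) and 0 relatives were lower. The numbers are not given as pairs: same-numbered mice had correlations of -0.0609, -0.0868 and 0.148, and only number 3 matched best with itself.

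Leaving out each mouse, with the filter, gave 0 to 5 of the 52 genes higher and 0 to 2 lower. Of further pathway genes 1 to 5 were higher, and 0 to 1 relatives were lower. In these fits 0.289% to 13.6% of all genes were called. Leaving out each mouse without the filter, added after seeing the data, gave 1 to 5 of the 52 genes higher and 0 to 2 lower. Of further genes 3 to 8 were higher and 0 to 1 lower, and 0 to 2 relatives were lower. In those fits 0.962% to 12.2% of all genes were called. The log2 fold change turned in sign for Rec8 (0.44 with limma-voom, 0.03 with the block, -0.70 to 1.23 leaving out each mouse), Msh5 (-0.66 to 0.17), Rad21l (-0.15 to 0.26), Syce2 (-0.20 to 0.08), Tdrkh (-0.03 to 0.00) and Mlh3 (0.00 without deficient mouse 2 and without the filter); none passed in a fit in which its sign turned. The causes were not tested.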
